A study of Danio rerio with 8 samples.

Results

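The genes described here act in DNA replication or in mitosis. The list held 51 zebrafish genes, 12 of replication and 39 of mitosis. A gene was found when its symbol stood alone as the gene symbol of a transcript cluster, a set of array probes summarised into 1 value, and the cluster with the highest mean signal over all arrays was used. In this way 44 of the 51 genes were found among 22653 genes with 1 symbol, 11 of the 12 replication genes and 33 of the 39 mitosis genes. The 7 others (*mcm2* of the replication genes and *ccna2*, *cenpa*, *smc2*, *tpx2*, *prc1a* and *numa1* of the mitosis genes) were not analysed here. Only *cntrl*, with 3 clusters, and *mcm3* and *rrm2*, with 2 each, had more than 1 cluster.

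Liver RNA of 8 adult wild-type zebrafish of the AB strain was hybridised to ZebGene 1.1 ST arrays. In each of 2 batches, 2 fish had been given oligo-fucoidan (OF), an enzymatic extract of brown seaweed, and 2 were controls labelled as untreated (mock). The sources used here do not state whether the controls were gavaged. OF was given by oral gavage (300 mg/kg, 3 doses a week over 1 month) to fish that were 5 months old at the start in the methods and have an age of 6 months in the labels. The arrays are numbered as separate fish whose sex is not named, and the comparison asks which of these genes differed between OF-fed and control livers.

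Before a cell divides it copies its DNA. Cyclin E drives entry into this phase, the MCM proteins form the helicase that opens the double helix, PCNA is the ring that holds the polymerase on its template, and ribonucleotide reductase and thymidylate synthase make the DNA building blocks. In mitosis, Cdk1 with its B cyclins and the Polo and Aurora kinases build the spindle, the spindle checkpoint holds back Cdc20 until every kinetochore is attached, separase then cuts the link between sister chromatids, and a contractile ring parts the cells. Most hepatocytes of an adult liver are not dividing and hold little RNA of these genes, whereas oocytes store transcripts of many of them for the first divisions of the embryo.

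Signals are log2 values and changes are OF minus control on that scale, so that a change of 1 is a doubling. Array medians lay between 2.11 and 2.13 in batch 1 and between 2.54 and 2.63 in batch 2, so levels were compared only within a batch and never between genes. The files used here hold no detection call, and a low signal is therefore not read as absence. All 12 hepatocyte markers lay above the median of every array, with list medians of 11.7 to 12.7. Their changes with OF were negative for all 12 in batch 1 (median −0.37) and positive for all 12 in batch 2 (median 0.38). The arrays also differed in a way that followed the OF label in batch 1 alone. Of 8 estrogen responsive genes, 4 were found (the egg yolk precursors *vtg2*, *vtg3* and *vtg6* and the receptor *esr1*), and their median was 2.43 and 2.76 on the batch 1 control arrays, 10.6 and 12.9 on the batch 1 OF arrays, 13.4 and 13.5 on the batch 2 control arrays, and 13.4 and 2.27 on the batch 2 OF arrays. The second OF array of batch 2 thus stood apart from its replicate.

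Oocyte and germ line markers moved along with this split. Of 16 such genes 14 were found. Their summed linear signal was 50.5 to 54.8 on the batch 1 control arrays, 989.6 to 3305 on the batch 1 OF arrays, 126.7 to 310 on the batch 2 control arrays, and 358.6 and 54.7 on the batch 2 OF arrays. On the batch 1 control arrays the highest of the 14 markers had a signal of 2.57, and on the first batch 1 OF array the zona pellucida gene *zpcx* had 9.01 and the oocyte RNA-binding factor gene *zar1* 8.11. In batch 1, 12 of the 14 markers were called higher with OF, where 3.26% of all clusters were, with a median change of 4.10. A called gene changed more than 2-fold with a limma p under 0.05 before adjustment in that batch, as the study's methods set it. In batch 2 0 were called higher, where 2.55% of all clusters were, with a median change of −0.44 and no unadjusted p under 0.05. Erythrocyte markers, of which 5 of 9 were found, went the other way (median change −1.68 in batch 1 and 1.50 in batch 2), with summed signals of 140.6 to 253.5 and 45.8 to 59.5 on the control and OF arrays of batch 1, and 91.1 to 121.9 and 189.3 to 444.7 in batch 2. Exocrine pancreas markers, 7 of 10 found, had summed signals of 1548 to 5143 and 51.1 to 1757 on the control and OF arrays of batch 1, and 3177 to 3656 and 2324 to 3479 in batch 2. The part of these other cells in the results for replication and mitosis genes was not tested, and in bulk tissue more cells of a kind and more RNA per cell cannot be told apart.

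**Figure D1:**
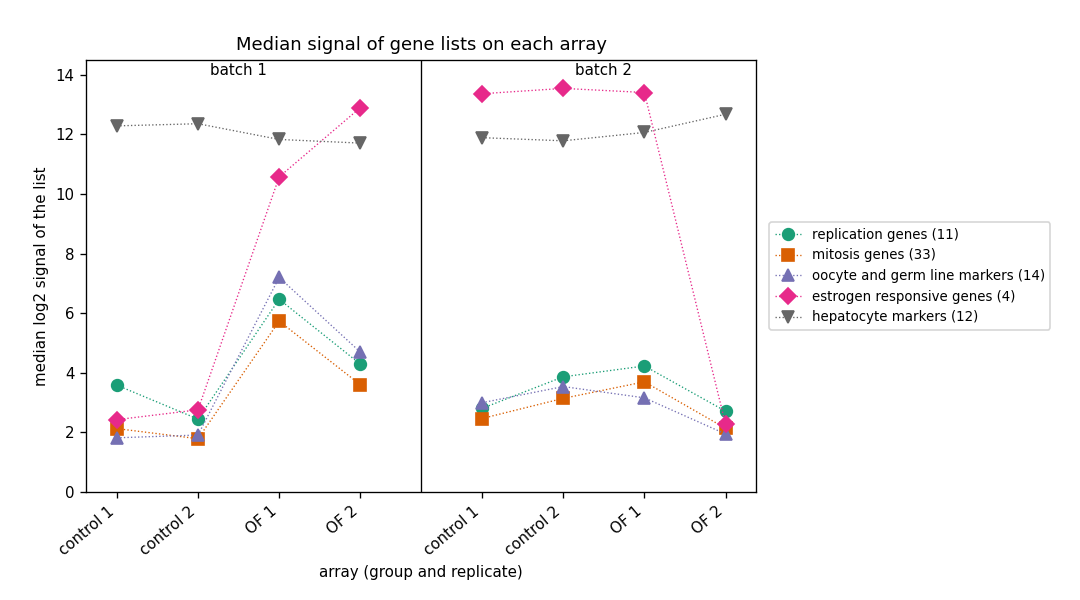
Median log2 signal (vertical axis) of the replication genes, the mitosis genes and 3 marker lists on each of the 8 arrays (horizontal axis, by batch, group and replicate); each point is the median over the genes found, whose number stands in the key. Within each batch the replication genes, mitosis genes and oocyte markers have their lowest medians on arrays with low estrogen responsive genes. For the replication genes of batch 2 this is a near tie. Their median is 2.71 on the second OF array and 2.81 on the first control array, where the estrogen responsive genes have 13.4. The mitosis genes reach 5.74 on the first OF array of batch 1 and 3.70 on the first OF array of batch 2. Levels of different lists are not to be compared, nor levels across batches.

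In batch 1, replication and mitosis genes had higher signals on the OF arrays than on the control arrays. The median change was 1.92 for the 11 replication genes (−0.92 to 4.99) and 2.41 for the 33 mitosis genes (0.28 to 6.06), against −0.03 for all 59300 clusters. At the thresholds of the methods, 5 replication genes and 17 mitosis genes were called higher, 22 of 44 in all, where 3.26% of all clusters were. None was called lower, where 3.47% of all clusters were, and *ccne2* alone had an unadjusted p under 0.05 with a negative change. Both OF arrays lay above both control arrays for 36 of the 44 genes, as for 18.5% of all clusters. At an adjusted p under 0.05, 0 of the members and 0% of all clusters passed in batch 1, and the lowest adjusted p of a member was 0.185, that of *ccnb1*. The count of 22 was 11 without the first control array (2.62% of all clusters), 6 without the second (1.87%), 38 without the second OF array (7.49%) and 20 without the first (3.58%).

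Among the replication genes of batch 1, all 3 genes of nucleotide supply were called higher, where 3.26% of all clusters were. *rrm2*, the small subunit of ribonucleotide reductase whose RNA is tied to S phase, had log2 signals of 2.56 and 2.45 in the control livers and 8.92 and 6.07 in the OF livers, a change of 4.99 (standard error 1.03, adjusted p = 0.283). Its second cluster had a change of 4.38. *rrm1*, the large subunit, had 4.94 and 4.12 in controls and 8.50 and 6.93 with OF, a change of 3.18 (standard error 0.65, adjusted p = 0.282). For both subunits each OF fish was well above each control fish, by more than the difference between the 2 OF fish. *tyms*, thymidylate synthase, had a change of 2.87 (standard error 0.87). *pcna* had 6.01 and 4.78 in controls and 8.18 and 6.55 with OF, without overlap, but its change of 1.97 did not pass (adjusted p = 0.492).

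The pair of E cyclin genes did not move together. *ccne1* was called higher, from 2.25 and 1.78 in the batch 1 controls to 7.40 and 4.29 with OF, a change of 3.83 (standard error 1.13). *ccne2* had 2.46 and 2.15 in the controls and 1.43 and 1.62 with OF, so both OF fish lay below both controls, and its change of −0.77 (standard error 0.21, adjusted p = 0.357) was under the 2-fold threshold. It was 1 of 2 members below their controls without overlap in batch 1, as 23.9% of all clusters were, and the other was *mcm6*. The OF signals of *ccne2* lay under the medians of their arrays (2.11), and its control signals were near theirs (2.12 and 2.13). The contrast with *ccne1* thus rests on a low signal.

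The helicase genes were divided as well. *mcm4* was called higher (change 1.92, standard error 0.68), *mcm7* and *mcm5* had changes of 1.63 and 1.52 that did not pass, and *mcm3* and *mcm6* had changes of −0.04 and −0.92 that did not pass either. *mcm3* had signals of 2.47 and 2.03 in the batch 1 controls and 2.18 and 2.25 with OF, near the array medians of 2.11 to 2.13. *mcm6* had 3.94 and 2.99 in the controls and 2.82 and 2.28 with OF. In Xenopus, *mcm3* and *mcm6* each exist as a maternal and a zygotic gene, and the zebrafish array names a further gene for each, *mcm3l* and *mcm6l*, which were not on the list and were looked up after the values of *mcm3* and *mcm6* had been seen. *mcm3l* had 1.79 and 1.93 in the batch 1 controls and 6.48 and 3.60 with OF. *mcm6l* had 1.83 and 1.83 in the controls and 6.76 and 4.36 with OF. Their changes in batch 1 were 3.18 and 3.73, and in batch 2 0.48 and −0.22, so in batch 1 the -l gene of each pair had a positive change, as *mcm4*, *mcm5* and *mcm7* did, and the gene on the list did not. Whether either zebrafish gene of a pair is a maternal one was not tested, and nothing is read from this later choice of genes.

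**Figure D2:**
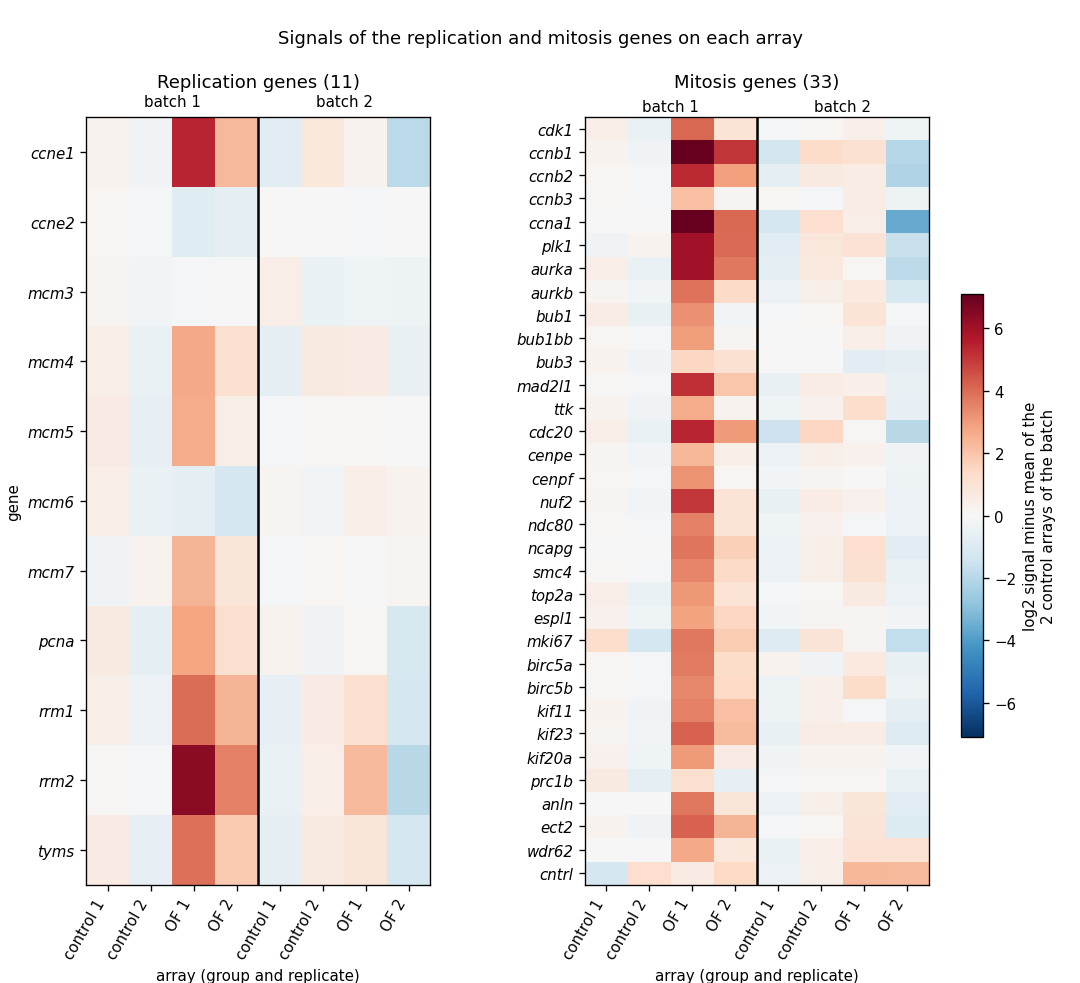
Heat maps of the 11 replication genes (left) and 33 mitosis genes (right), one row per gene and one column per array, coloured by the log2 signal minus the mean of the 2 control arrays of the same batch (red, higher; blue, lower). The first OF array of batch 1 is the reddest column in both maps, *ccne2*, *mcm3* and *mcm6* are pale or blue there, and most mitosis genes are blue on the second OF array of batch 2, where *wdr62* and *cntrl* are red.

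The mitosis genes of batch 1 all had positive changes with OF, where 27413 of all 59300 clusters did. The highest were those of cyclins and kinases that start mitosis. *ccnb1*, the B cyclin that partners Cdk1, had log2 signals of 1.98 and 1.49 in the control livers and 8.80 and 6.79 in the OF livers. Its change of 6.06 (standard error 0.75, adjusted p = 0.185) was the highest of the 44 genes. *ccna1*, an A cyclin that in mice is restricted to the germ line, had 1.38 and 1.32 in controls and 8.45 and 5.42 with OF, a change of 5.58 (standard error 1.09, adjusted p = 0.269). For both cyclin genes the control fish lay under a signal of 2 and the OF fish over 5. These control signals were under the medians of their arrays (2.12 and 2.13). Of the 33 mitosis genes, 17 and 7 lay above the array median on the batch 1 control arrays, and 33 and 30 on the OF arrays. *ccnb2* was called higher too, with a change of 4.08, whereas *cdk1* itself (2.55, adjusted p = 0.567) and *ccnb3* (1.16, adjusted p = 0.669) did not pass, although their OF fish lay above their control fish. For *ccnb3* the second OF fish, at 1.726, was close to the higher control fish, at 1.635, and both were under the medians of their arrays.

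All 3 Polo and Aurora kinase genes were called higher in batch 1, where 3.26% of all clusters were. *plk1*, which drives centrosome maturation and mitotic entry, had 1.91 and 2.43 in the controls and 8.11 and 6.20 with OF, a change of 4.98 (standard error 0.72, adjusted p = 0.217). *aurka*, the Aurora kinase of the spindle poles, had 3.02 and 2.06 in the controls and 8.52 and 6.28 with OF, a change of 4.86 (standard error 0.88, adjusted p = 0.253). In both genes the lower OF fish was more than 3 log2 units above the higher control fish. *aurkb*, the kinase of the chromosomal passenger complex, had a change of 2.60, and the genes of its partner survivin, *birc5a* and *birc5b*, were called higher as well, with changes of 2.49 and 2.41. *birc5b* had 1.89 and 1.76 in the controls and 5.26 and 3.22 with OF.

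Of the 6 genes of the spindle checkpoint and its target, 3 were called higher in batch 1, where 3.26% of all clusters were. They were *cdc20*, the activator of the anaphase-promoting complex (change 4.23), *mad2l1*, which binds and holds back Cdc20 (3.57), and *bub3*, which brings checkpoint proteins to the kinetochore. *bub3* had 4.20 and 3.75 in the controls and 5.46 and 5.07 with OF, a change of 1.29 (standard error 0.27, adjusted p = 0.284), the smallest change among the 22 called genes and the one with the lowest standard error. The checkpoint kinase genes *bub1*, *bub1bb* and *ttk* had changes of 1.54, 1.58 and 1.44 that did not pass. On the second OF array of batch 1 *bub1* and *ttk* had signals of 2.19 and 2.61, within the range of the controls.

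The 4 kinetochore genes *cenpe*, *cenpf*, *nuf2* and *ndc80* lay above their controls on both OF arrays, as 18.5% of all clusters did. Their changes were 1.40 to 2.99. Of these 4 genes 0 were called higher, where 3.26% of all clusters were, and nothing is read from that 0. Groups of so few genes are not compared with each other. For *cenpf* the second OF fish, at 1.985, hardly differed from the higher control fish, at 1.966, and both were under the medians of their arrays. Of the 5 genes for chromosome structure and separation 3 were called higher, beside the same 3.26% of all clusters. They were the condensin subunit genes *ncapg* (2.76) and *smc4* (2.41), and *espl1*, the gene of separase. *espl1* had 2.42 and 1.86 in the controls and 4.98 and 3.62 with OF, a change of 2.16 (standard error 0.55, adjusted p = 0.34). *mki67*, the proliferation marker Ki-67, and *top2a*, the topoisomerase that untangles sister chromatids, had changes of 2.76 and 2.03 that did not pass (the lower adjusted p = 0.532). For *mki67* the 2 control fish differed by more than 2 units, at 4.33 and 1.79.

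Among the spindle motors and cytokinesis genes, *kif11*, *kif23* and *ect2* were called higher in batch 1. *kif11*, the motor that pushes the spindle poles apart, had 2.16 and 1.66 in the controls and 5.48 and 4.02 with OF, a change of 2.84 (standard error 0.57, adjusted p = 0.279). *kif23*, of the centralspindlin complex, and *ect2*, which activates RhoA at the cleavage site, had changes of 3.21 and 3.28. *anln*, the ring scaffold anillin, and *kif20a* had changes of 2.31 and 1.80 that did not pass. *prc1b*, which bundles midzone microtubules, had the smallest change of all mitosis genes, 0.28 (standard error 0.75), with overlapping fish.

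The 2 OF fish of batch 1 differed from each other across the list. On the first OF array 32 of the 33 mitosis genes and 8 of the 11 replication genes had their highest signal of the batch, as did 27.6% of all clusters, and 32 and 9 genes were higher there than on the second OF array. The median difference between the 2 OF arrays was 2.14 for the mitosis genes and 1.58 for the replication genes. For 16 of the 44 genes this difference was greater than the change with OF, a count whose share over all clusters was not computed. The lowest signal of the batch stood on the second control array for 29 mitosis genes and 8 replication genes, as for 22.5% of all clusters. Oocyte markers were also higher on the first OF array than on the second in 14 of 14 genes (median difference 1.58), whereas the estrogen responsive genes were lower there in 4 of 4 (median difference −1.65).

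In batch 2, with all 4 fish, the same genes had no common direction with OF. The median change was −0.04 for the replication genes (−0.85 to 0.37) and −0.02 for the mitosis genes (−1.54 to 2.33), against 0.03 for all clusters. Positive changes were 5 among 11 and 15 among 33, beside 31731 of all 59300 clusters. Only *wdr62* and *cntrl* were called higher, 2 of 44, where 2.55% of all clusters were. None was called lower, where 3.12% of all clusters were. Of the 22 genes called higher in batch 1, 16 had a negative change in batch 2, as did 27569 of all 59300 clusters. The share among clusters called higher in batch 1 was not computed. In batch 2, 0 of the 22 were called higher, where 2.55% of all clusters were, and nothing is read from that 0. At an adjusted p under 0.05, 0 members and 0.0101% of all clusters passed, with 0.227 as the lowest adjusted p of a member, that of *cntrl*.

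The 2 OF fish of batch 2 differed widely from each other. *ccnb1* had 2.45 and 5.08 in the controls and 4.84 and 1.73 with OF, and *ccna1* had 3.79 and 6.18 in the controls and 5.48 and 1.42 with OF. *rrm2* had 2.81 and 3.78 in the controls and 5.57 and 1.34 with OF, a change of 0.16 (standard error 1.47), with −1.33 in its second cluster. *rrm1* had 5.02 and 6.23 in the controls and 6.76 and 4.40 with OF. In these genes the first OF fish was as high as a control fish or higher, and the second was the lowest of the 4. The first OF array was above and the second below both control arrays for 17 of the 44 genes, and the OF arrays differed by more than the change with OF for 39. The share over all clusters was not computed for either count, so neither is read as a trait of these genes.

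The kinases of mitosis and *kif11* repeated this order. *plk1* had 3.08 and 4.66 in the controls and 4.90 and 2.29 with OF. *aurka* had 4.07 and 5.44 in the controls and 4.89 and 2.89 with OF. *kif11* had 2.04 and 2.77 in the controls and 2.26 and 1.77 with OF. In all 3 the second OF fish was the lowest of the batch, as it was for 25 of 33 mitosis genes and 5 of 11 replication genes, against 28.4% of all clusters. Controls differed too: 30 of 33 mitosis genes were higher on the second control array than on the first (median difference 0.78), as were 44.5% of all clusters. Of the other genes given on every array, *pcna* had 6.42 and 5.91 in the controls and 6.23 and 5.05 with OF, and *espl1* had 2.86 and 3.20 in the controls and 3.21 and 2.84 with OF.

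Without the second OF array of batch 2, the one whose estrogen responsive genes and oocyte markers were low, *birc5b*, *cntrl*, *rrm2* and *ttk* were called higher in batch 2 (4 of 44, 2.94% of all clusters). The changes of 30 of 33 mitosis genes and 8 of 11 replication genes were then positive, with medians of 0.50 and 0.23. Without the first OF array, *ccna1*, *ccnb2*, *pcna* and *rrm2* were called lower (4 of 44, 4.03% of all clusters) and *cntrl* alone higher (5.9%). The changes of 2 of 33 mitosis genes and 2 of 11 replication genes were then positive, with medians of −0.53 and −0.51. The call of *rrm2* and the medians thus had opposite directions with one or the other OF fish. The lone OF array was in each case assumed to vary like the controls.

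*wdr62* and *cntrl*, which encode centrosomal proteins, were the only members called higher in batch 2. With 2 of 44 called, where 2.55% of all clusters were, the count is near that share and is not read as a result. *wdr62*, needed for spindle pole integrity, had 3.38 and 4.28 in the controls and 4.86 and 4.88 with OF, a change of 1.04 (standard error 0.36, adjusted p = 0.472). In batch 1 it had 3.08 and 3.18 in the controls and 5.80 and 3.88 with OF, a change of 1.71 that did not pass (adjusted p = 0.523). It was the only member whose OF fish lay above the controls without overlap in both batches, as 2.54% of all clusters did. The authors' annotation of its cluster holds a cross-hybridisation value of 1 beside 0, as for *aurkb*, *top2a* and *kif20a* alone among the members. Whether other transcripts add to its signal was not tested. *cntrl*, the gene of centriolin, which acts in the last step of cytokinesis, had 4.59 and 5.40 in the batch 2 controls and 7.34 and 7.31 with OF, a change of 2.33 (standard error 0.33, adjusted p = 0.227). In batch 1 it had 4.31 and 6.71 in the controls and 6.09 and 6.93 with OF, which overlap, and a change of 1.00 (standard error 0.92). Both genes were high on the second OF array of batch 2, where most other mitosis genes were at their lowest.

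**Figure D3:**
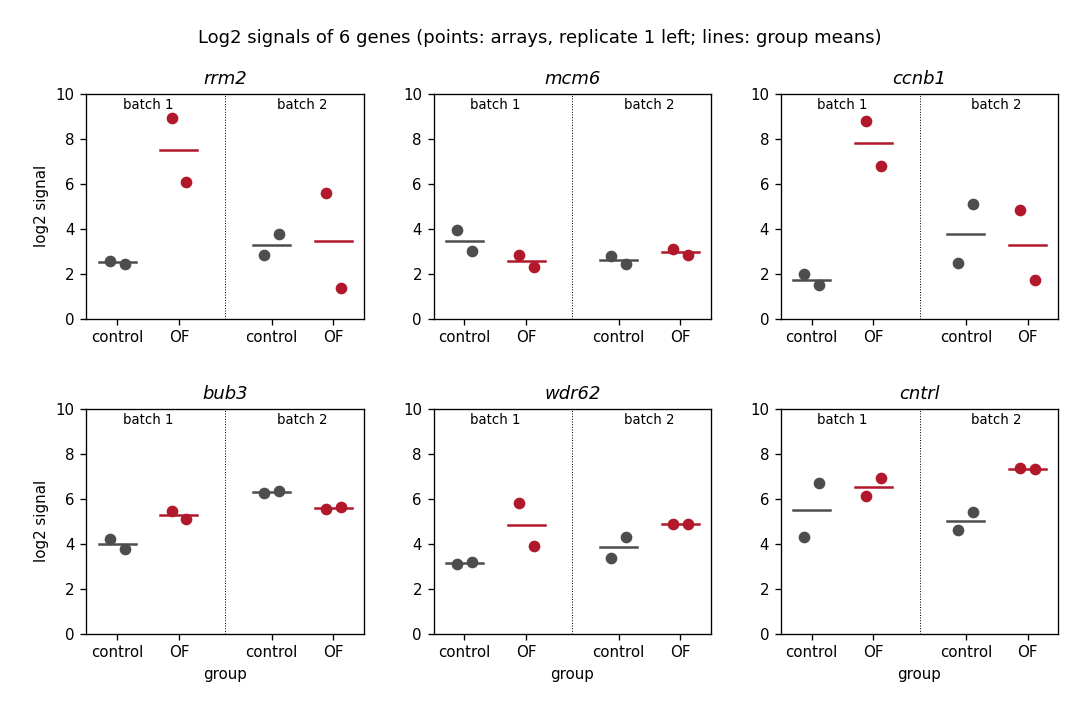
Log2 signals (vertical axis) of *rrm2*, *mcm6*, *ccnb1*, *bub3*, *wdr62* and *cntrl* by group (horizontal axis); points are single arrays (grey, control; red, OF; replicate 1 on the left) and lines are means of 2 arrays. The OF fish of batch 1 stand far above their controls for *rrm2* and *ccnb1*, those of batch 2 are far apart from each other in both genes, *bub3* and *mcm6* change direction between the batches, and *wdr62* lies above its controls in both.

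Over both batches together, with batch as a term, the median change was 0.86 for the replication genes and 1.28 for the mitosis genes, against −0.002 for all clusters. All 33 mitosis genes had positive changes, as did 8 of the 11 replication genes and 29395 of all 59300 clusters. But only *wdr62* (change 1.38, standard error 0.43) and *cntrl* (1.67, standard error 0.57) had an unadjusted limma p under 0.05. With a positive change, 2.06% of all clusters did. None had one with a negative change, where 2.42% of all clusters did. The 3 clusters of *cntrl* had changes of 1.67, 1.49 and 1.69. At an adjusted p under 0.05, 0 members and 0% of all clusters passed, and every member had an adjusted p of at least 0.955. The next smallest unadjusted p-values were those of *birc5b* (change 1.44), *ccne2* (−0.41) and *espl1* (1.08), and in batch 2 *birc5b* had 3.31 and 3.99 in the controls and 4.93 and 3.30 with OF, and *ccne2* 1.76 and 1.76 in the controls and 1.68 and 1.75 with OF.

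The fit over both batches depended on single fish of either batch. Without the first OF array of batch 1, the median change fell to 0.39 for the replication genes and to 0.57 for the mitosis genes, of which 31 of 33 were then positive. Without the second OF array of batch 2, 18 members had an unadjusted p under 0.05 and a positive change, 3 replication genes (*rrm1*, *rrm2* and *tyms*) and 15 mitosis genes, where 3.24% of all clusters did, and *ccne2* had one with a negative change (3.39% of all clusters). The change of *rrm2* was then 3.91 (standard error 0.87), that of *rrm1* 2.36 (standard error 0.64) and that of *ccnb1* 4.06 (standard error 1.245), and *cntrl* no longer passed. None passed an adjusted p (lowest 0.712). Without the second control array of batch 2, 11 members passed (2.34% of all clusters), 2 replication genes and 9 mitosis genes.

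The change with OF differed between the batches for 17 of the 44 genes at an unadjusted p under 0.05 in the test of the difference. For 3 replication genes (*ccne1*, *pcna* and *rrm1*) and 12 mitosis genes the change was lower in batch 2, as for 6.61% of all clusters. For *ccne2* and *mcm6* it was higher in batch 2, as for 7.69%. The greatest differences were those of *ccna1* (−7.12, standard error 2.24) and *ccnb1* (−6.54, standard error 1.83), and the smallest p was that of *bub3* (difference −1.99, standard error 0.33, adjusted p = 0.124). Of the 44 genes, 41 had a smaller change in batch 2 than in batch 1, as did 27202 of all 59300 clusters. The exceptions were *ccne2*, *mcm6* and *cntrl*. At an adjusted p under 0.05, 0 members and 0.00506% of all clusters passed (lowest among members 0.124).

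*bub3* and *mcm6* went in opposite directions in the 2 batches with no overlap in either. *bub3* had 6.24 and 6.32 in the batch 2 controls and 5.52 and 5.63 with OF, a change of −0.70 (standard error 0.195, adjusted p = 0.377) that was under the 2-fold threshold, after one of 1.29 in batch 1. It was the only member above the controls in batch 1 and below them in batch 2, as 4.53% of all clusters were, and 1 of 2 members (with *ccne2*) below the controls in batch 2, as 17.8% were. *mcm6* had 2.79 and 2.42 in the batch 2 controls and 3.10 and 2.84 with OF, a change of 0.37, after −0.92 in batch 1. It was 1 of 3 members (with *wdr62* and *cntrl*) above the controls in batch 2, as 21% of all clusters were.

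**Figure D4:**
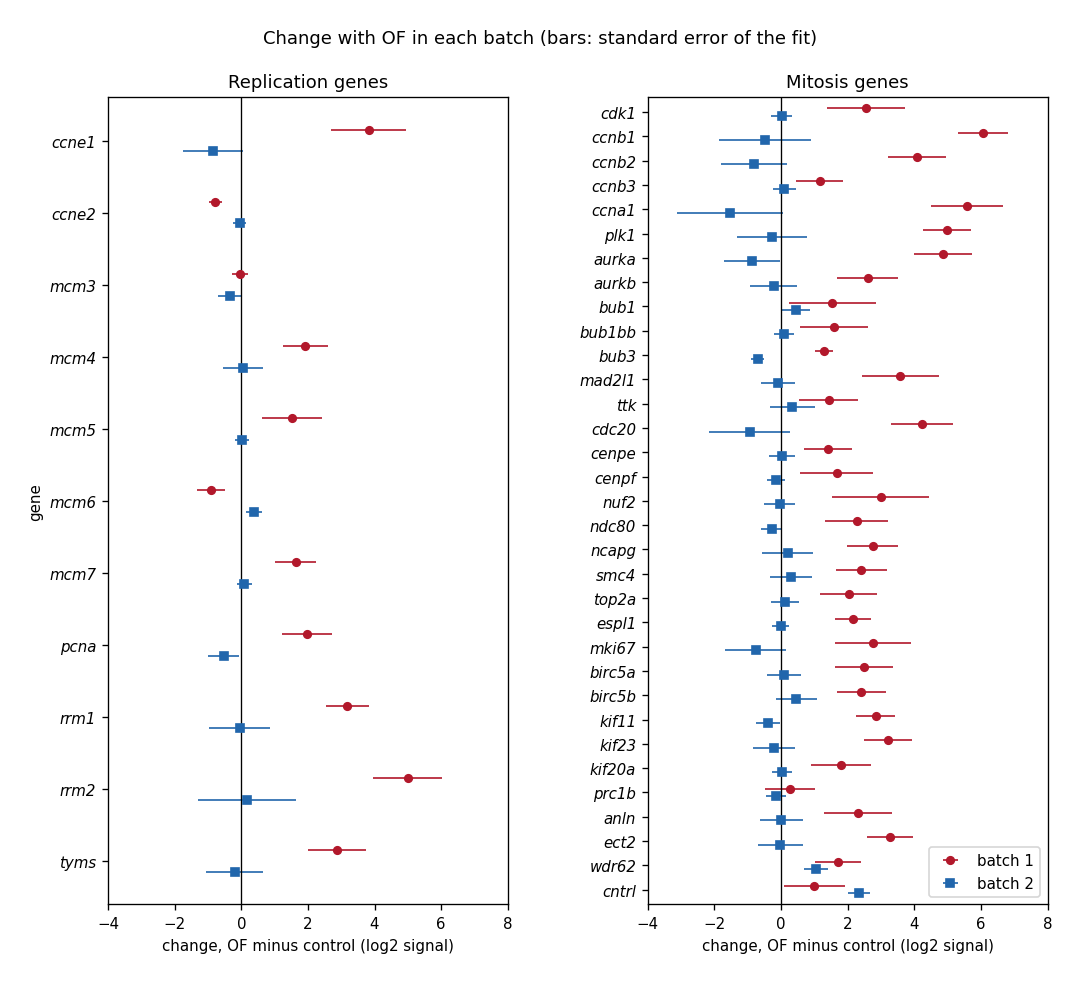
Change with OF (horizontal axis, OF minus control in log2 signal) of each of the 11 replication genes (left) and 33 mitosis genes (right) in batch 1 (red circles) and batch 2 (blue squares); bars are the standard error of the limma fit within the batch. Changes of batch 1 reach 6.06 and lie above those of batch 2 in 41 of 44 genes, as in 27202 of all 59300 clusters. Of the 44 changes of batch 2, 41 lie between −1 and 1, a count whose share over all clusters was not computed.

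Further genes of the same processes were called in the same direction in batch 1. Of 40 other replication genes, such as those of the origin recognition complex, GINS and the DNA polymerases, 12 were called higher and 0 lower in batch 1 (median change 1.47), where 3.26% and 3.47% of all clusters were. In batch 2, 1 was called higher and 2 lower (median change 0.04), where 2.55% and 3.12% of all clusters were, so that these small counts are read as no result. Over both batches 3 passed an unadjusted p under 0.05 with a positive change, where 2.06% of all clusters did: *pola2* (1.15, standard error 0.34), a subunit of the DNA polymerase alpha-primase complex, and the GINS subunit genes *gins1* (0.96, standard error 0.35) and *gins3* (0.99, standard error 0.42). *gins1* had 2.17 and 2.21 in the batch 1 controls, 3.51 and 2.92 in the batch 1 OF livers, 2.21 and 2.37 in the batch 2 controls and 4.02 and 2.37 in the batch 2 OF livers. Of 47 other mitosis genes, 19 were called higher and 0 lower in batch 1 (median change 1.73), and 0 higher and 1 lower in batch 2 (median change −0.08), beside the same shares of all clusters. Here *kif4*, a chromosome-bound kinesin (1.71, standard error 0.62), and *dsn1*, of the Mis12 kinetochore complex (1.09, standard error 0.42), passed over both batches, and *cenpn* (1.43) did not.

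The last list held genes that control the cell cycle (further cyclin-dependent kinases and their inhibitors, D cyclins, E2F and Myb factors and the like). Of 31 found, 2 were called higher and 3 lower in batch 1 (median change 0.31), and 2 higher and 0 lower in batch 2 (median change −0.06). With 3.26% and 3.47% of all clusters called in batch 1 and 2.55% and 3.12% in batch 2, nothing is read from these small counts. The smallest p-values over both batches were those of *lin54*, a DNA-binding subunit of the DREAM complex (−0.52, standard error 0.17), *mybl1*, a Myb factor of the germ line in mice (0.38, standard error 0.13), and *cdkn1bb*, an inhibitor of the p27 family (−0.82, standard error 0.35). *lin54* had 5.02 and 4.99 in the batch 1 controls and 4.75 and 4.76 with OF, and 6.05 and 6.51 in the batch 2 controls and 5.39 and 5.57 with OF, so that it lay below its controls in both batches.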

How the data were processed

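Liver RNA of 8 zebrafish was measured on 8 arrays. Signals were processed by the authors with Transcriptome Analysis Console software, by guanine cytosine count normalization and signal space transformation, and were deposited as log2 values of 75212 clusters. They also deposited worksheets that name the clusters and give log2 averages of each group, other columns such as the number of probes of a cluster, and their own fold changes and p-values, which were not used. Array medians differ between the batches, so a level depends on the batch in which it was measured. Depth has no meaning for arrays, and their number limits the precision.

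After removal of 84 control clusters, lmFit and eBayes of limma 3.58.1 (R 4.3.3) were applied to 59300 clusters in 4 fits: batch 1, batch 2, both with an additive batch term, and both with an OF by batch interaction. Calls within a batch needed a fold change over 2 and a limma p under 0.05, and calls over both batches or for the difference a limma p under 0.05. The printed p-values are adjusted over all clusters by the Benjamini-Hochberg method. No cluster was removed for a low signal, so every gene found was tested. The fits were tested on simulated data with 200 changed clusters, each given the same change in both batches. Recovery by the fit of the difference was therefore not tested. Within a batch, changes of log2 size 3 were called at the methods' thresholds in 66 of 66 clusters, but 0 passed an adjusted p under 0.05. At size 1, 31 of 67 were called in batch 1 and 30 of 67 in batch 2. Over both batches 59 of 66 changes of size 3 and 19 of 67 of size 1 passed an adjusted p. Such shares hold for changes that are equal in the batches, unlike those of most members here. They also hold for clusters drawn at random, with 1 normal spread per cluster in all groups. A member such as *nuf2* had unequal spreads in batch 1 (standard deviation 0.26 in controls and 2.86 with OF). Its change of 2.99 was not called, so the shares are not carried over to the members. The lack of adjusted passes, within a batch or over both, is therefore not read as a lack of change. Tables and plots used Python 3.11.15, pandas 2.3.3 and matplotlib 3.10.9.

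Signals on every array are given for the 8 called genes with the smallest p in each batch, the 5 with the smallest p over both batches and the 5 with the highest mean signal, and at most 3 genes are named from each of the other replication, mitosis and cell cycle control lists. Marker genes are named only to describe the arrays. Array values of *ccne1*, *mcm3*, *mcm6*, *mcm3l* and *mcm6l* were added after they were seen. Single signals of *ccnb3*, *cenpf*, *mki67*, *bub1* and *ttk* are also given outside this rule. The members and gene lists were chosen with earlier results of these data known. Alternatives were quantile normalization, a filter at a mean log2 signal of 5, the mean of all clusters of a gene, eBayes with trend and robust, a replicate block, no batch term, a spread shared over 8 arrays, an adjusted threshold, and leaving out each array. No positions are printed because the sources used here name no genome build for the clusters.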

Additional observations from a re-analysis of the deposited data

Results flagged for a closer look

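2 genes were flagged because their OF fish lay on one side of the controls in batch 1 and on the other side in batch 2. For *mcm6*, a subunit of the replicative helicase, the change of batch 2 minus that of batch 1 was 1.29 (standard error 0.52, adjusted p = 0.338 in limma). For *bub3*, of the spindle checkpoint, it was −1.99 (standard error 0.33, adjusted p = 0.124 in limma). The pattern of *bub3* was found in 4.53% of all clusters, and the share for that of *mcm6* was not computed. Nothing about these 2 genes is read from the flags.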

How the results depend on the processing

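Groups held 2 fish in each batch. Of the changes of single genes over both batches under the alternatives, 540 kept their side of the threshold. Where the direction of such a change turned, the shift was at most 1 standard error. A further 30 came to pass the threshold and 5 (all of *cntrl*, without 1 array) no longer passed it. That of *cenpf* moved to −0.04 without the first OF array of batch 1. The filter left 4 members, *pcna*, *rrm1*, *bub3* and *cntrl*. Calls were then 3 higher in batch 1, 1 in batch 2, 1 over both batches and 3 for the difference. The mitosis median of 1.15 in batch 1 was that of *bub3* and *cntrl* alone. With an adjusted p under 0.05, 0 were called in either batch. With eBayes trend and robust, 1 was called higher in batch 2, and 1 lower over both batches. In batch 2, 1 was called higher with quantile normalization and 1 with a shared spread. Same-numbered arrays deviated together over all clusters at r = 0.113 in batch 1 and −0.0727 in batch 2. This gave little sign that the numbers pair fish but cannot exclude it. The replicate block gave 29, 2, 2 and 19 calls for batch 1, batch 2, both batches and their difference. The share over all clusters was not computed for the filter, trend and robust, quantile normalization, shared spread or block. Without 1 array, that share moved with the array left out. None of these counts, nor the ranges that follow, is therefore read as stronger or weaker than the main ones. Without 1 array, genes called higher were 6 to 38 in batch 1, 1 to 4 in batch 2 and 1 to 18 over both batches, those called lower 0 to 1, 0 to 4 and 0 to 1, and those called for the difference 5 to 38. Median changes without 1 array ranged from 1.36 to 3.58 (mitosis) and 1.13 to 2.71 (replication) in batch 1, from −0.53 to 0.50 and −0.51 to 0.23 in batch 2, and from 0.57 to 1.72 and 0.39 to 1.21 over both batches.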
